A study of Bos taurus with 6 samples.

Results

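The interferon tau (IFNT), pregnancy-associated glycoprotein (PAG) and trophoblast Kunitz domain protein (TKDP) genes form 3 ruminant families whose products are secreted by the trophoblast. Members were the annotated rows with a symbol that begins with IFNT, with TKDP, or with PAG and a digit. The rule found 26 symbols in 23 loci, of 13557 annotated loci listed in every library. A row that merges several genes was kept as 1 locus. The families held 1 IFNT locus, 19 PAG loci and 3 TKDP loci. The study exposed in vitro fertilized bovine embryos to FIDAS-5, an inhibitor of MAT2A, which makes the methyl donor S-adenosylmethionine. Embryos of 8 to 16 cells were assigned on day 3 (72 h after insemination) to 20 µM FIDAS-5 or to its solvent, DMSO at 0.1%, and both groups stayed in the same bovine serum albumin medium at 5% oxygen until day 6 (144 h). Whether the inhibitor group also received DMSO is not labelled, nor are breed, sex or batch. Each group held 3 single morulae with 1 polyA RNA library each (SMART-Seq HT PLUS, a full-length kit for low input), and nothing in the labels says that they came from separate cultures, so errors and p-values cover only the spread between these embryos.

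IFNT is the signal by which a ruminant conceptus announces its presence to the mother. It is secreted by trophectoderm, the outer epithelium of the blastocyst, binds the type I interferon receptor on the uterus and keeps the corpus luteum from regressing. PAGs are relatives of pepsin and other aspartic proteases, and TKDPs are secreted proteins with a domain of the Kunitz protease inhibitor type. Both families rise later than the morula in placental development. A morula is the compacted stage before the blastocoel forms, when outer cells begin to take up trophectoderm fate.

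Levels are in FPKM, fragments scaled to transcript length and library size, and can be compared between genes. Depth, recovered from steps in the deposited confidence bounds, was 46500000 to 59900000 fragments, so 1 fragment on 1 kb of transcript was worth 0.0167 to 0.0215 FPKM. Between 27.5% and 29.9% of all annotated loci were listed at 0 in a given library, and 16.7% in all 6. An exact 0 in these tables can be a failed estimate and is given only as a listing. The pluripotency gene POU5F1 stood at 254.8 to 431.0 FPKM in every library, and the trophectoderm marker TFAP2C at 76.1 to 104.0 FPKM. Y-linked transcripts summed to 58.2 and 118.2 FPKM in MAT2A-inhibited morulae 2 and 3 and to at most 0.193 FPKM in the other 4. XIST, the X inactivation transcript, was at 0.164 and 0.127 FPKM in those 2 embryos and at 7.49 to 61.3 FPKM in the other 4. Sex is not labelled, and both of those embryos are treated, so group and sex cannot be fully told apart. In these whole embryos, fewer cells of a type and less RNA per cell cannot be told apart.

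Most members were listed at 0 or close to it on day 6. Of the 23 loci, 14 were listed at 0 in all 6 libraries, 9 were above 0 in at least 1 library, and 4 reached 1 FPKM anywhere: TKDP1, the IFNT locus, PAG2 and PAG21. Of the 138 member values, 115 were 0. A library held between 2 and 6 member loci above 0. No library had all 3 families at 1 FPKM or more except MAT2A-inhibited morula 1, which had TKDP1, IFNT and PAG21 above that level. Every TKDP1 value at that level came from a long row, described below, that is not known to be TKDP1 transcript.

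**Figure D1:**
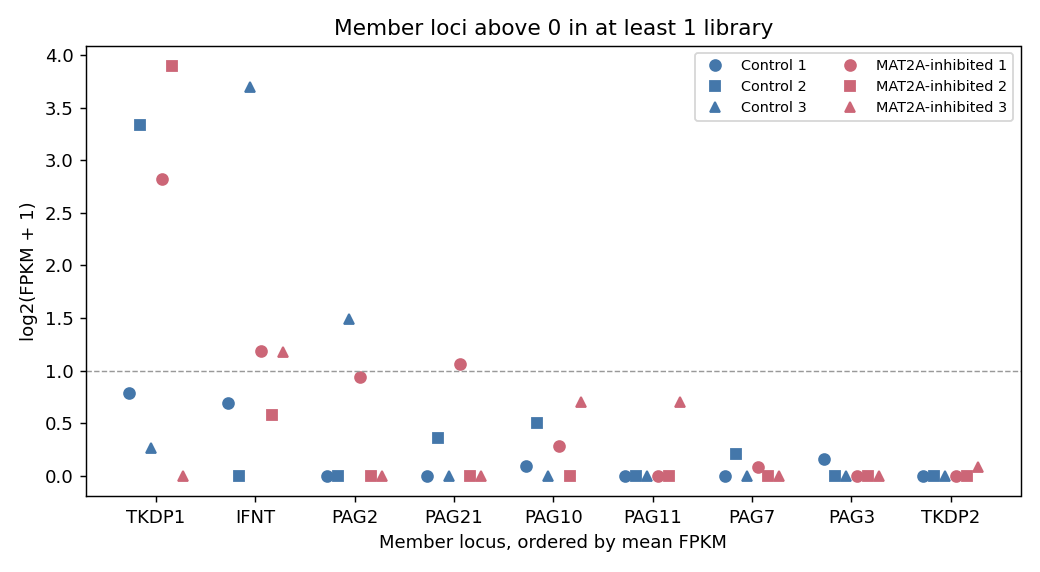
The 9 member loci above 0 in at least 1 library, as log2(FPKM + 1) on the y axis, ordered by mean FPKM on the x axis. Each point is 1 morula, blue for Control and red for MAT2A-inhibited, with the symbol giving the replicate number, and the dashed line marks 1 FPKM. TKDP1 has points near 0 and above 6 FPKM in both groups, and IFNT has 1 control point far above the other 5.

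Only 2 of the 23 members, IFNT and TKDP1, met the filter for the test between groups. The filter asks for 1 FPKM or more in at least 3 of 6 libraries, and TKDP1 met it through its long rows alone. Neither passed limma on log2(FPKM + 1) with Benjamini-Hochberg adjustment over 7613 loci at a threshold of 0.05. The share of all tested loci that passed was 0.0263%, or 2 loci, so a count of 0 among 2 members says little. Both of those loci, CDKN3 and ZBTB8OS, were listed at 0 in every control library, and such listings can be failed estimates. By unadjusted p below 0.05, 0 of the 2 members and 6.62% of all tested loci were called. The other 21 members had too low a level in too many libraries to be tested.

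Interferon tau is the ligand among these families. The 4 interferon tau symbols IFN-tau-c1, IFNT, IFNT2 and IFNT3 shared 1 row in every library (bosTau8 chromosome 8, 22607642 to 22634255), so its FPKM cannot be divided among the copies. The row was at 0.619, 0 and 11.95 FPKM in the control embryos, against 1.28, 0.494 and 1.27 FPKM after FIDAS-5, each in the order of replicates 1 to 3, which is kept throughout. Control 3 stood far above the other 5, which lay at or below 1.28 FPKM, and the lowest and the highest library were both controls. The highest value equals 716 fragments per kb of transcript and the lowest above 0 equals 23.0. The value of Control 3 lies above its own deposited bounds of 8.91 to 11.0 FPKM, the 1 such case among the 23 member values above 0.

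IFNT did not differ between groups beyond the spread of embryos. The means were 4.19 ± 6.73 FPKM in the control embryos, against 1.01 ± 0.450 FPKM after FIDAS-5 (SD, n = 3 each, exact two-sided permutation p = 0.9, where 0.1 is the smallest that 3 against 3 can give). The difference between groups (inhibited minus control, log2 of FPKM + 1) was -0.48 with an SE of 0.884 (95% interval -2.54 to 1.58, limma adjusted p = 0.909). That interval covers more than a 2-fold change either way. Without Control 3 the difference was 0.64, so its direction rests on that embryo, and with a pseudocount of 0.1 it was 0.12.

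The embryo with the most IFNT also had the most KRT8 and KRT18, but not the most of the other simple epithelial keratins. KRT7 was highest in MAT2A-inhibited morula 1, at 18.6 FPKM against 8.30 FPKM in Control 3. KRT19 was highest in MAT2A-inhibited morula 3, at 21.3 FPKM against 6.37 FPKM in Control 3. KRT8, the type II keratin of trophectoderm, was at 81.4, 4.49 and 400.5 FPKM in the control embryos, against 38.7, 109.5 and 229.9 FPKM after FIDAS-5. Its partner KRT18 was at 22.6, 8.67 and 363.4 FPKM against 28.5, 90.4 and 117.03 FPKM. GATA3, a trophectoderm transcription factor, was at 13.7, 6.50 and 83.4 FPKM against 17.0, 15.5 and 33.9 FPKM. In KRT8, KRT18 and GATA3 alike, Control 3 was highest and Control 2, where IFNT was listed at 0, was lowest. CDX2, which drives trophectoderm fate, was also highest in Control 3, at 2.77 FPKM, and stood at 0.276 FPKM in Control 2, with MAT2A-inhibited morula 2 lower still at 0.188 FPKM.

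Of the 6 trophectoderm markers, 4 were highest in Control 3, and of the 21 tested genes in the wider trophectoderm and trophoblast list 7 were. Of all tested loci, 18.1% had their highest value in that library. DAB2, an endocytic adaptor of trophectoderm and endoderm, was highest in Control 1 at 152.2 FPKM and nearly as high in Control 3 at 151.04 FPKM. TFAP2C, an AP-2 factor, was highest in MAT2A-inhibited morula 2. The summed level of the 6 markers was 185.8 FPKM in Control 2, 1095 FPKM in Control 3 and 232.1 to 554.0 FPKM in the others. In Control 2 the pluripotency gene NANOG was at 20.3 FPKM, against 1.16 to 4.58 FPKM elsewhere. POU5F1 was also highest in Control 2, at 431.0 FPKM. SOX2, another pluripotency gene, went the other way: it was lowest in Control 2, at 27.6 FPKM against 32.1 to 50.8 FPKM elsewhere. Markers of cumulus and granulosa cells, which surround the oocyte, summed to 18.7 FPKM over 8 genes in Control 2 and to 3.18 to 7.32 FPKM elsewhere. DCN, LUM and CYP19A1 were highest in Control 2, at 11.002, 4.81 and 1.34 FPKM. The rest were not: FSHR and HAS2 were listed at 0 there, and STAR and INHBA were at 1.20 and 0.146 FPKM. COL1A2 was lowest there, at 0.231 FPKM against 4.29 and 4.06 FPKM in Controls 1 and 3. The part of these differences in the IFNT values was not tested.

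**Figure D2:**
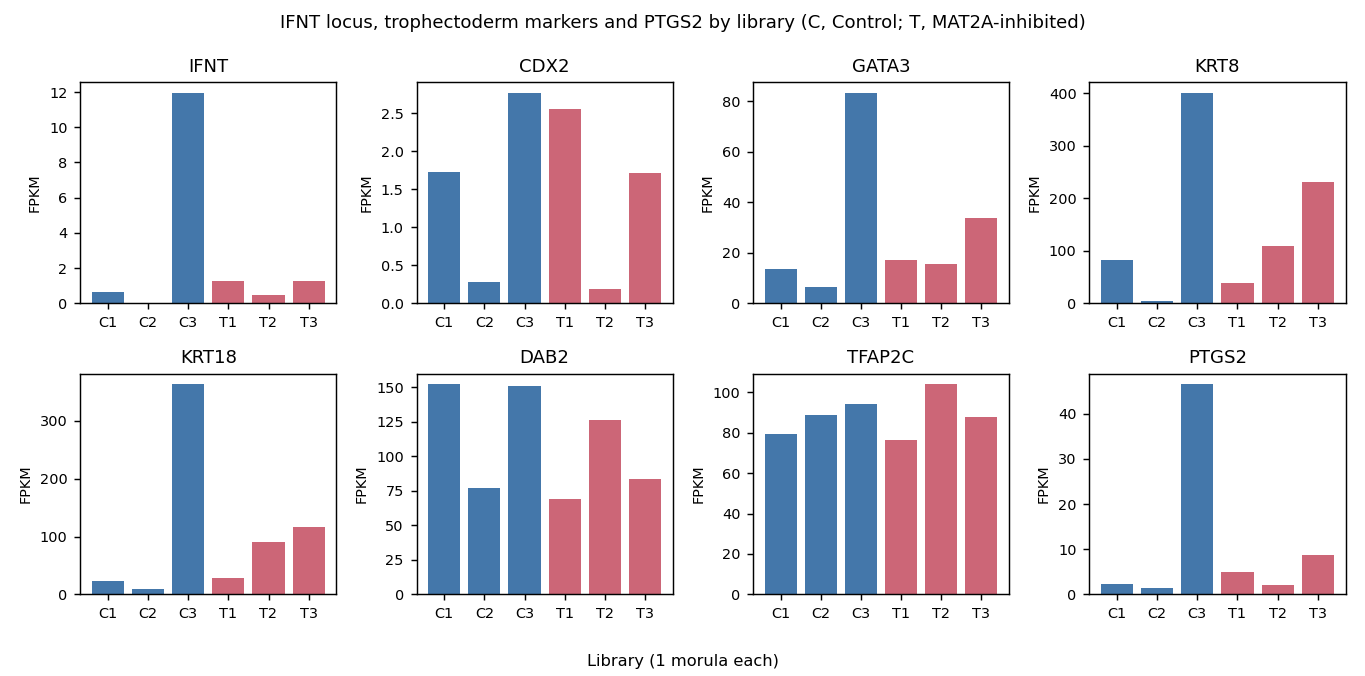
FPKM on a linear y axis from 0 in each of the 6 libraries (x axis; C, Control; T, MAT2A-inhibited) for the IFNT locus, the 6 trophectoderm markers and PTGS2. Each bar is 1 morula, with no error bar. Control 3 is the highest bar for IFNT, CDX2, GATA3, KRT8, KRT18 and PTGS2, and DAB2 and TFAP2C do not follow that order.

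PTGS2, which makes prostaglandin H2 and is active in the elongating conceptus, had the pattern most like IFNT over the 6 libraries (Pearson r = 0.977 on log2(FPKM + 1), a description). It was at 2.40, 1.42 and 46.5 FPKM in the control embryos, against 4.89, 2.15 and 8.69 FPKM after FIDAS-5. Next came CPOX, a heme synthesis enzyme, also with r = 0.977, and UCHL5, a deubiquitinase of the proteasome, with r = 0.976. Among 7611 tested loci outside the families, 99 exceeded r = 0.9 with IFNT.

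No known regulator of IFNT passed the test between groups. Of 16 genes sought, 14 were annotated and 11 were tested. Of these 11, 0 passed limma adjusted over all loci, and 0 had an unadjusted p below 0.05. The median difference of the 11 was 0.15 on the log2 scale, beside 0.042 for all tested loci. Of the 11, 9 were above 0, as were 4112 of the 7613 tested loci. ETS2, the factor that activates the IFNT promoter, was at 0.914, 1.06 and 2.004 FPKM in the control embryos, against 1.75, 3.78 and 1.98 FPKM after FIDAS-5 (log2 difference 0.58, adjusted p = 0.791). SP1, a general promoter factor, had a log2 difference of 0.50 and JUN, a subunit of AP-1, one of 0.47. DLX3, which acts on the IFNT promoter, was at most 0.454 FPKM, and EOMES was listed at 0 throughout.

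**Figure D3:**
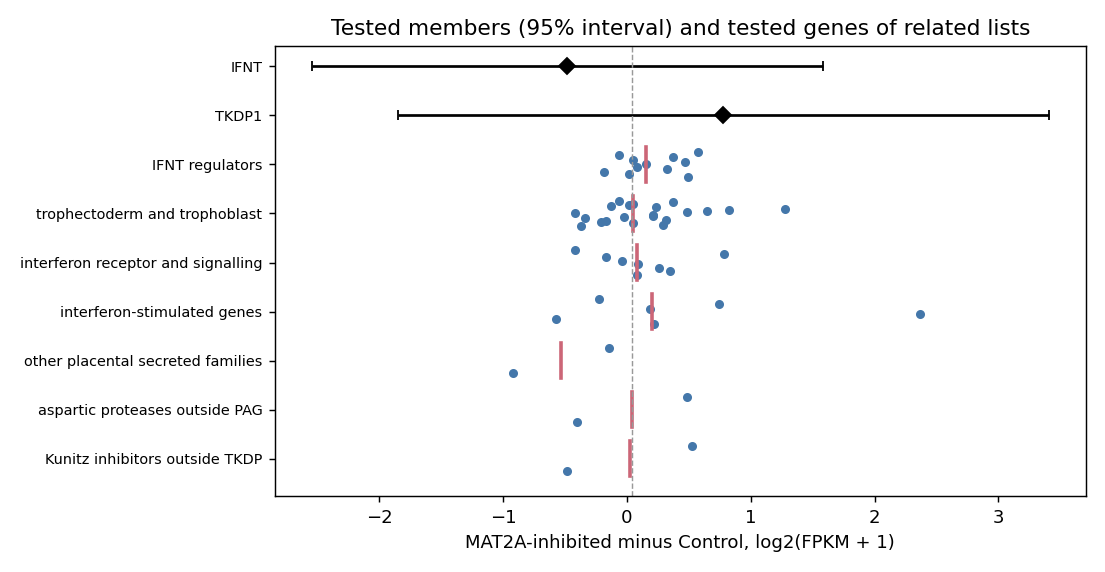
Difference between groups, inhibited minus Control in log2(FPKM + 1) (x axis), for IFNT and TKDP1, with 95% intervals from limma as bars, and for each tested gene of 7 related lists (y axis, 1 point per gene, red bars for list medians). The dashed line is the median of all tested loci, 0.042. The intervals of both members cross 0 and are wider than the range of most genes plotted.

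The receptor and the response to the ligand were sparse. IFNAR1, a receptor chain, was at 0.175 to 2.05 FPKM, and IFNAR2, the other chain, was listed at 0 in every library. JAK1 and TYK2, the receptor kinases, were at 5.18 to 9.62 and 0.328 to 4.35 FPKM. STAT2, a transcription factor that the receptor activates, was at 1.64 to 2.66 FPKM. Among 21 loci of interferon-stimulated genes, 15 were not tested and 5 were listed at 0 in all libraries, including ISG15, MX2 and IFI6, which are classical responders to IFNT in uterus and blood. MX1 reached 0.0875 FPKM in 1 library.

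Of the receptor and signalling list, 8 genes were tested and 0 passed (median difference 0.085), with 0 at an unadjusted p below 0.05. Of the interferon-stimulated list, 6 loci were tested, 0 passed and 2 had an unadjusted p below 0.05, as did 6.62% of all tested loci. The median difference was 0.20, beside 0.042 for all tested loci. The 2 loci, HERC5 and B2M, went in opposite directions. HERC5, a ligase that attaches ISG15, was listed at 0 in Controls 1 and 2 and was at 4.62 FPKM in Control 3. It reached 8.42, 6.54 and 9.81 FPKM after FIDAS-5 (log2 difference 2.36, limma adjusted p = 0.722). That difference rests in part on the 2 listings at 0, which can be failed estimates. B2M, the light chain of class I molecules, was at 1049, 1229 and 911.1 FPKM in the control embryos, against 710.1, 831.7 and 601.6 FPKM after FIDAS-5 (log2 difference -0.57, adjusted p = 0.724). The merged IFITM1 and IFITM2 locus, membrane proteins that block virus entry, had a log2 difference of 0.74. IFITM1 and IFITM2 were at 10.7 FPKM in Control 3 and listed at 0 in Control 2, the same extremes as IFNT.

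Other type I interferons made up 7 loci, and no type III interferon was analysed here. All 7 stayed below 1 FPKM in the 6 libraries, and 0 were tested. The highest was IFNK, an epithelial interferon, at 0.920 FPKM in Control 1. IFNB1 reached 0.426 FPKM, and 3 loci were listed at 0 throughout.

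The PAG family spans 2.30 Mb of chromosome 29, from 38135611 to 40431938, in 19 loci. PAG1 and PAG16 shared 1 row in every library, which runs from 38952099 to 39189626 and encloses PAG20 and PAG21. Of the 19 loci, 13 were listed at 0 in all 6 libraries: PAG12, PAG5, PAG18, PAG15, PAG4, PAG14, PAG1 with PAG16, PAG20, PAG19, PAG17, PAG9, PAG6 and PAG8. The other 6 were above 0 in 1 to 4 libraries. The copies are alike in sequence, so reads at these low levels may be divided among them by the authors' software in ways that cannot be checked from these tables.

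PAG2 (38155753 to 38165168) held the highest PAG value. It was listed at 0 in Controls 1 and 2 and was at 1.81 FPKM in Control 3. In the MAT2A-inhibited morulae it was at 0.913 FPKM in replicate 1 and listed at 0 in the others. The highest value equals 109 fragments per kb of transcript, and PAG2 shared its highest library with IFNT. The means were 0.605 ± 1.05 and 0.304 ± 0.527 FPKM (SD, n = 3, exact permutation p = 1).

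PAG21 (39049995 to 39059075) was at 0, 0.281 and 0 FPKM in the control embryos, against 1.08, 0 and 0 FPKM after FIDAS-5 (exact permutation p = 1). The 1.08 FPKM equals 58.6 fragments per kb. PAG10, the first locus of the cluster (38135611 to 38144051), was above 0 in the most libraries of any PAG. It was at 0.0646, 0.420 and 0 FPKM in the control embryos, against 0.218, 0 and 0.623 FPKM after FIDAS-5, so the groups overlapped.

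Of the remaining members, PAG11 was above 0 in MAT2A-inhibited morula 3 alone, at 0.629 FPKM or 36.3 fragments per kb. PAG7 was at 0.155 FPKM in Control 2 and 0.0562 FPKM in MAT2A-inhibited morula 1. PAG3 was at 0.116 FPKM in Control 1. The smallest of these values, that of PAG7, equals 3.04 fragments per kb, so it rests on a handful of fragments. MAT2A-inhibited morula 2 had every PAG locus listed at 0.

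PAGs are commonly divided into an ancient group, expressed across the trophoblast, and a modern group of binucleate cells, which fuse with the uterine epithelium. Of the loci here, PAG2, PAG8, PAG10, PAG11 and PAG12 belong to the ancient group. In this group 3 of 5 loci were above 0 in some library, with a highest value of 1.81 FPKM. In the modern group it was 3 of 14, with a highest value of 1.08 FPKM. The division was applied after the values were seen and no test was made of it. Ancient loci occupy the first 3 and the last 2 positions of the 19 along the cluster, and PAG10 and PAG2 are the first 2.

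**Figure D4:**
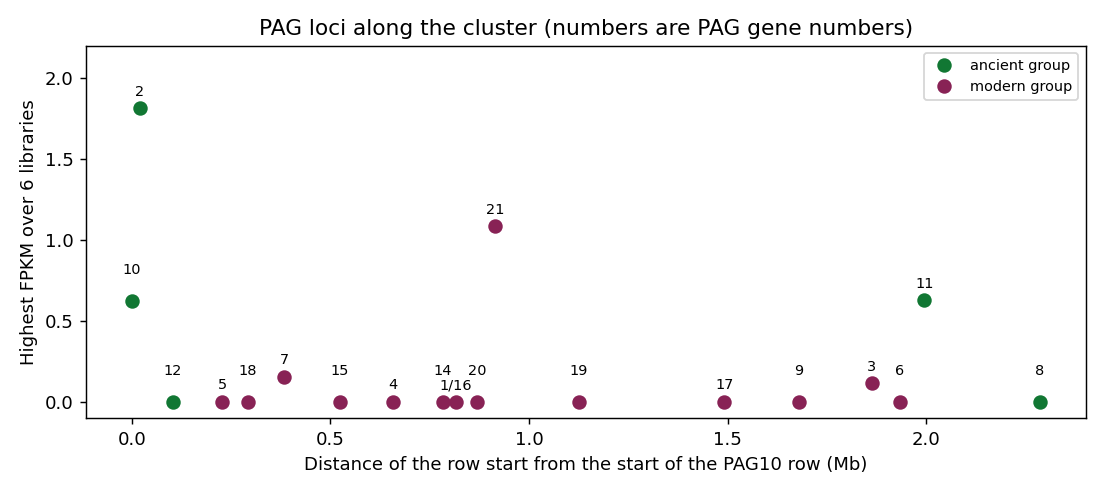
The 19 PAG loci by the distance of their row start from that of PAG10 (x axis, Mb) and by their highest FPKM over the 6 libraries (y axis). Each point is 1 locus, labelled with its PAG number, green for the ancient and purple for the modern group. PAG2, PAG21, PAG11 and PAG10 stand above 0.6 FPKM and 13 loci lie at 0.

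Aspartic proteases outside the PAG family were low as well. Of 8 annotated loci, 2 were tested and 0 passed, with 0 at an unadjusted p below 0.05 and a median difference of 0.044. CTSD, a lysosomal protease, was at 0.690 to 6.22 FPKM (log2 difference 0.49). BACE1, which cuts the amyloid precursor, was at 7.72 FPKM in Control 2 and at 0.118 to 1.83 FPKM elsewhere (log2 difference -0.40). PGA5, a pepsinogen and so a close relative of the PAGs, was at 2.69 FPKM in Control 2, at 4.11 FPKM in MAT2A-inhibited morula 1 and at most 0.550 FPKM elsewhere. PAG21 and PAG7 were each above 0 in those same 2 libraries and in no other, a match seen after the values and not tested.

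The TKDP family lies on chromosome 13 in 3 loci. TKDP4 (74829012 to 74837316) was listed at 0 in all libraries. TKDP2 (74867645 to 74877419) was at 0.0569 FPKM in MAT2A-inhibited morula 3, equal to 3.28 fragments per kb, and listed at 0 in the others. TKDP1 had the highest mean of all members, through long rows described below. It was at 0.720, 9.10 and 0.202 FPKM in the control embryos, against 6.07, 13.9 and 0 FPKM after FIDAS-5. Control 2 and MAT2A-inhibited morulae 1 and 2 were high, the other 3 low, and both groups held libraries of each kind.

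TKDP1 did not differ between groups beyond the spread. The means were 3.34 ± 4.99 FPKM in the control embryos, against 6.64 ± 6.95 FPKM after FIDAS-5 (SD, n = 3, exact permutation p = 0.7). The log2 difference was 0.78 with an SE of 1.13 (95% interval -1.85 to 3.41, limma adjusted p = 0.885). Without MAT2A-inhibited morula 2 it was -0.050, so its direction rests on that library. Without MAT2A-inhibited morula 3 it was 1.90, without Control 2 it was 1.71 and without Control 3 it was 0.18.

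The value of TKDP1 moved with the extent of its row. In Control 1, Control 3 and MAT2A-inhibited morula 3 the row began at 74797629 or 74797634 and ended at 74814422, a length of 16.8 kb. In Control 2 it began at 74669497, in MAT2A-inhibited morula 1 at 74684053 and in MAT2A-inhibited morula 2 at 74690280, with the same end. In these 3 libraries the row thus took in 128.1, 113.6 and 107.4 kb ahead of the shortest row. The 3 long rows are the 3 high values, 6.07 to 13.9 FPKM, and the 3 short rows are the low ones, at most 0.720 FPKM. A value of a long row is therefore not known to be TKDP1 transcript.

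No annotated gene lies in the added stretch in any library, and the nearest annotated row ahead of it is LOC100196900, which ends at 74517896. Unannotated rows lay in the stretch in 3 libraries, 4 rows in all. The highest, at 7.07 FPKM from 74692366 to 74692956, was in MAT2A-inhibited morula 1, inside its long TKDP1 row of 6.07 FPKM. Control 3 had 2, of 276 and 318 bases, at 2.47 and 2.83 FPKM. Control 1, with a short TKDP1 row, had 1 of 3931 bases at 1.53 FPKM that starts at 74689008, 1272 bases before the start of the long row of MAT2A-inhibited morula 2. A start that varies this far is rare: 14 of 7613 tested loci, or 0.184%, had a range of starts at least as wide, and the median range was 3 bases. The IFNT row had the same start in all 6 libraries.

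**Figure D5:**
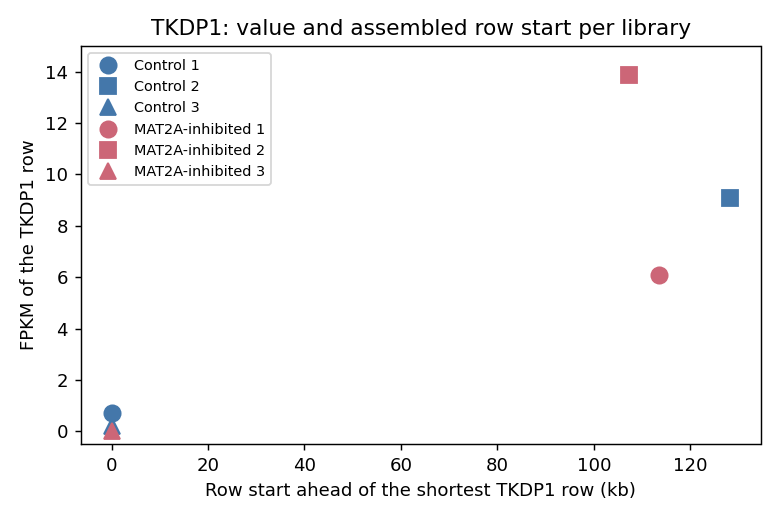
FPKM of the TKDP1 row (y axis) against how far ahead of the shortest TKDP1 row it begins (x axis, kb). Each point is 1 morula, blue for Control and red for MAT2A-inhibited; Control 3 and MAT2A-inhibited 3 lie close together at 0 kb. The 3 rows that begin over 100 kb ahead carry 6.07 to 13.9 FPKM, and the 3 at 0 kb at most 0.720 FPKM.

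The loci with the pattern most like TKDP1 over the 6 libraries were FAM111B (r = 0.993), KIF5B (r = 0.985) and CEP57L1 (r = 0.978), on log2(FPKM + 1) and as a description. KIF5B, the heavy chain of kinesin-1, stood at 65.3, 68.0 and 90.05 FPKM where the TKDP1 row was long and at 29.04, 21.4 and 15.7 FPKM elsewhere. FAM111B, a serine protease, was at 5.61, 4.79 and 5.97 FPKM against 3.71, 3.30 and 3.00 FPKM. Outside the families 69 loci exceeded r = 0.9 with TKDP1. The 2 tested members had their high values in different embryos: IFNT was highest in Control 3, where TKDP1 was at 0.202 FPKM, and TKDP1 was highest in MAT2A-inhibited morula 2, where IFNT was at 0.494 FPKM.

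Kunitz inhibitors outside the TKDP family included an abundant gene. SPINT2, a membrane inhibitor of serine proteases in epithelia, was at 55.8, 18.1 and 76.3 FPKM in the control embryos, against 49.1, 69.7 and 69.8 FPKM after FIDAS-5 (log2 difference 0.53, adjusted p = 0.837). It was highest in Control 3 and lowest in Control 2, as IFNT was. TFPI, an inhibitor of blood clotting, was at 0.807 to 12.1 FPKM (log2 difference -0.48). Of 7 annotated loci 2 were tested and 0 passed, with 0 at an unadjusted p below 0.05 and a median of 0.024. The remaining secreted families of the placenta were mostly at 0: of 13 loci, including the prolactin-related proteins, 10 were listed at 0 throughout, 2 were tested and 0 passed, with 0 at an unadjusted p below 0.05. SSLP1, a trophoblast secreted protein, was at 4.88 to 8.07 FPKM (log2 difference -0.14) and SPP1, an adhesion protein of the placental interface, at 0.0516 to 13.3 FPKM (log2 difference -0.92).

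The wider trophectoderm and trophoblast list held 28 annotated genes, of which 21 were tested. None passed, 1 had an unadjusted p below 0.05, beside 6.62% of all tested loci, and the median difference was 0.052. Of the 21, 13 were above 0, beside 4112 of 7613 over all tested loci. KRT7, a keratin of simple epithelia, was at 3.38, 4.63 and 8.30 FPKM in the control embryos, against 18.6, 10.3 and 13.6 FPKM after FIDAS-5 (log2 difference 1.27, adjusted p = 0.724). Unlike KRT8 and KRT18 its groups did not overlap, which held for 13.3% of all tested loci. ATP1B3, a sodium pump subunit, and DAB2 had log2 differences of -0.21 and -0.42. HAND1 and ASCL2, factors of later trophoblast, were at most 2.14 and 0.209 FPKM, and ELF5 reached 1.48 FPKM in Control 2.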

How the data were processed

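The authors deposited a gene table per library, 6 in all, with FPKM and its confidence bounds, per the file headers. The submitters' processing notes name TopHat2 2.0.14, Cufflinks 2.2.1 and the build bosTau8, without settings or annotation. Row names show an assembly made for each library, which can merge or lengthen genes. Positions are as the files give them.

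Symbols that share a row in any library were joined into 1 locus, 300 of 13557 with more than 1 symbol, and its rows were summed. Depth is the number at which 99.7% to 99.9% of bounds of unannotated loci of 100 to 300 bases are whole fragments (tolerance 0.05). Loci at 1 FPKM or more in 3 of 6 libraries were tested with limma 3.58.1 (R 4.3.3) on log2(FPKM + 1), with a trend and no block. On simulated data with 200 of 7613 loci changed, 73.7% of 4-fold and 22.8% of 2-fold changes among better expressed loci were recovered, with 8.9 false calls per run. No member was among those better expressed loci. IFNT and TKDP1 had SEs of 0.884 and 1.13, beside a median of 0.334 over tested loci. The recovery rates therefore do not describe the members. Members and lists were chosen with earlier results of these data known. Named were members at 1 FPKM in any library, the 3 genes of smallest p per list, and the 3 loci most like the member of highest mean. Other members above 0, the likeness to IFNT and genes named for their level alone were added after values were seen.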

Additional observations from a re-analysis of the deposited data

Results flagged for a closer look

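Signal lay inside the IFNT row but outside its value. Unannotated rows of at least 1000 bases wholly within the 26613 bases of the IFNT row summed to 19.2 FPKM in MAT2A-inhibited morula 2 and to 9.28 FPKM in MAT2A-inhibited morula 3, above the highest control, 8.11 FPKM in Control 2. MAT2A-inhibited morula 1 was at 7.38 FPKM, below Control 2. MAT2A-inhibited morulae 2 and 3 are also the libraries with Y-linked transcripts, so group and sex cannot be fully told apart in these sums. The sum of Control 2 rests on a row at 7.19 FPKM that lies above its own deposited bounds of 0.882 to 2.72 FPKM, and Controls 1 and 3 summed to 5.18 and 6.34 FPKM. The Control 3 sum is 1 row, also above its bounds of 3.87 to 5.68 FPKM. The IFNT row itself stood at 0.494 FPKM in MAT2A-inhibited morula 2 and at 1.27 FPKM in MAT2A-inhibited morula 3. These sums depend on how each library was assembled, and the rule was chosen after the values were seen.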

How the results depend on the processing

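No member passed the threshold in any of the 17 alternatives, with 0 to 9 members tested. The IFNT difference was 0.12 with a pseudocount of 0.1 and ran from -1.21 to 0.64 with 1 library left out. The TKDP1 difference ran from -0.050 to 1.90 with 1 library left out. Neither changed direction under the other alternatives in which it was tested, and the adjusted p ran from 0.66 to 0.997 and from 0.678 to 0.998. Without the 2 libraries with Y-linked transcripts, which leaves 1 treated embryo assumed to vary like the rest, the differences were -0.28 and 1.36. Over all loci, 2 passed, against 1 with no filter and 1 with a mean of at least 5 FPKM, a filter that neither member met, and 1 to 8 with 1 library left out (8 without Control 3, 1 without MAT2A-inhibited morula 1). With the replicate number as a block in limma 1 locus passed, and IFNT and TKDP1 had adjusted p of 0.836 and 0.678. The SE of the TKDP1 difference was then 0.506, beside 1.13 with no block. Same-numbered libraries correlated at 0.0446, 0.105 and 0.187 in their deviations from the group means over loci. MAT2A-inhibited morulae 2 and 3 correlated best with the control of their own number, and MAT2A-inhibited morula 1 with Control 2, at 0.0936. The numbers were not taken as pairs. Leaving out loci whose ends differ by over 50000 bases, added after the data were seen, removed TKDP1 from the test. Depth limits values of a few fragments, such as those of PAG7 and TKDP2.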

Other observations

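Unannotated rows with a similar start recur within the IFNT row. In all 6 libraries an unannotated row of at least 1000 bases began between 22620748 and 22620857 on chromosome 8, a spread of 109 bases. The window of starts was drawn around these rows after the values were seen, so the small spread follows from that choice. Lengths ran from 1105 to 8382 bases, and whether the rows are 1 transcript was not tested. Such rows were at 2.56 FPKM in Control 1, 0.918 FPKM in Control 2 and 6.34 FPKM in Control 3. MAT2A-inhibited morulae had 2 such rows each. They were at 1.43 and 2.86 FPKM in replicate 1, at 10.2 and 7.72 FPKM in replicate 2 and at 5.52 and 1.82 FPKM in replicate 3. The longer row of each pair ended between 22629069 and 22629130. In Control 2 such a row, of 1119 bases, was present while the annotated IFNT row was listed at 0. Of the 19 PAG loci, 2 had an unannotated row overlapping them in any library, PAG21 and the merged PAG1 and PAG16.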
